A study of Gallus gallus with 6 samples.

Results

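SOX2, ISL1, LMX1A and PAX2 are transcription factor genes of the embryonic inner ear, and their levels are described here in chicken basilar papillas infected with RCAS(A)-Wnt9a or with RCAS(A) alone. The 4 genes, of 15955 in the count table, were chosen by name from the authors' tables of changed genes, with their fold changes and adjusted p-values in this contrast already known. The level differences between the groups are therefore a description, and no support is drawn from them.

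The basilar papilla is the auditory sensory organ of birds. Right otocysts of chicken embryos received RCAS(A)-Wnt9a, a replication-competent avian retrovirus carrying Wnt9a, or its parent RCAS(A) on embryonic day 3, and papillas were taken on embryonic day 6. Each group has 3 libraries, and each library is one biological replicate made from a pool of 24 papillas. The titles number the RCAS(A)-Wnt9a pools 1, 2 and 3 and the RCAS(A) pools 2, 3 and 4. Both groups received a virus, so RCAS(A) shows the level under infection without the insert. The labels give neither the share of cells infected nor the sex of the pooled embryos. Library totals lay between 19200235 and 23017150 counts. WNT9A itself was at 1340, 539 and 427 CPM (counts scaled to library size) in RCAS(A)-Wnt9a pools 1, 2 and 3, against 7.90, 6.87 and 10.3 CPM in the control pools 2, 3 and 4 of RCAS(A), and these counts do not separate viral from endogenous transcripts.

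As background, the otic epithelium is divided into prosensory patches, which give rise to hair cells and supporting cells, and into nonsensory regions around them. SOX2, an HMG-box factor, marks prosensory cells and is required for them in the mouse, and ISL1, a LIM-homeodomain factor, is found in prosensory cells and in neurons of the ear. LMX1A, a second LIM-homeodomain factor, is mostly a gene of nonsensory epithelium later on, and mice without it have poorly separated sensory patches. PAX2, a paired-box factor, appears in the early otic placode and is required for growth of the cochlear duct in the mouse. Wnt9a is a secreted ligand that acts through Frizzled receptors, in many settings by stabilising beta-catenin.

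The 4 genes divided into a lower pair and a higher pair. SOX2 and ISL1 were lower in RCAS(A)-Wnt9a papillas, by about the same factor, and LMX1A and PAX2 were higher. LMX1A differed most, at 1.70-fold higher, and PAX2 least, at 1.27-fold higher. SOX2 was 1.40-fold lower and ISL1 1.42-fold lower. For all 4 genes the libraries of the groups did not overlap, as for 19.0% of the 12133 tested genes, and nothing is read from this since the genes were chosen on the same contrast.

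SOX2 (ENSGALG00000008848) lies on chromosome 9 from 16342563 to 16343510 in galGal4, a listed span of only 948 bases. Its level was 42.6, 56.3 and 51.9 CPM in RCAS(A)-Wnt9a pools 1, 2 and 3, against 67.9, 70.8 and 72.3 CPM in the control pools 2, 3 and 4 of RCAS(A). The RCAS(A) pools were close together, and the RCAS(A)-Wnt9a pools were spread more widely below them. The means were 50.3 ± 6.97 CPM in RCAS(A)-Wnt9a and 70.3 ± 2.23 CPM in RCAS(A) (SD, n = 3 each). RCAS(A)-Wnt9a replicate 1 was the lowest of all 6 libraries, and the gap between the groups was 11.7 CPM. On the log2 scale RCAS(A)-Wnt9a differed from RCAS(A) by -0.49 (SE 0.09).

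ISL1 (ENSGALG00000014884) lies on chromosome Z from 15002784 to 15016470. It was at 95.5, 98.5 and 114 CPM in RCAS(A)-Wnt9a pools 1, 2 and 3, against 151, 152 and 134 CPM in the control pools 2, 3 and 4 of RCAS(A). Here the spread was alike in both groups, with means of 103 ± 10.1 CPM in RCAS(A)-Wnt9a and 146 ± 10.1 CPM in RCAS(A) (SD, n = 3 each). Between the highest RCAS(A)-Wnt9a pool and the lowest RCAS(A) pool there were 20.1 CPM. On the log2 scale RCAS(A)-Wnt9a differed from RCAS(A) by -0.51 (SE 0.08).

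LMX1A (ENSGALG00000003424) lies on chromosome 8 from 5141844 to 5166718. Its level was 126, 109 and 98.8 CPM in RCAS(A)-Wnt9a pools 1, 2 and 3, against 63.5, 72.5 and 59.7 CPM in the control pools 2, 3 and 4 of RCAS(A). All RCAS(A)-Wnt9a pools stood above all RCAS(A) pools, with 26.3 CPM between the groups, the widest gap among the 4 genes. The means were 111 ± 13.5 CPM in RCAS(A)-Wnt9a and 65.2 ± 6.59 CPM in RCAS(A) (SD, n = 3 each). On the log2 scale RCAS(A)-Wnt9a differed from RCAS(A) by 0.77 (SE 0.10).

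PAX2 (ENSGALG00000005689) lies on chromosome 6 from 16649422 to 16724596. It was at 46.0, 46.7 and 41.9 CPM in RCAS(A)-Wnt9a pools 1, 2 and 3, against 38.2, 35.2 and 32.7 CPM in the control pools 2, 3 and 4 of RCAS(A). The groups came within 3.72 CPM of each other, so the separation was narrow. Means were 44.9 ± 2.62 CPM in RCAS(A)-Wnt9a and 35.4 ± 2.75 CPM in RCAS(A) (SD, n = 3 each). On the log2 scale RCAS(A)-Wnt9a differed from RCAS(A) by 0.34 (SE 0.08). The lowest single count of the 4 genes was that of PAX2 in RCAS(A) replicate 4, at 662, which carries a counting error of 3.89%, so counting error is small beside the difference.

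**Figure D1:**
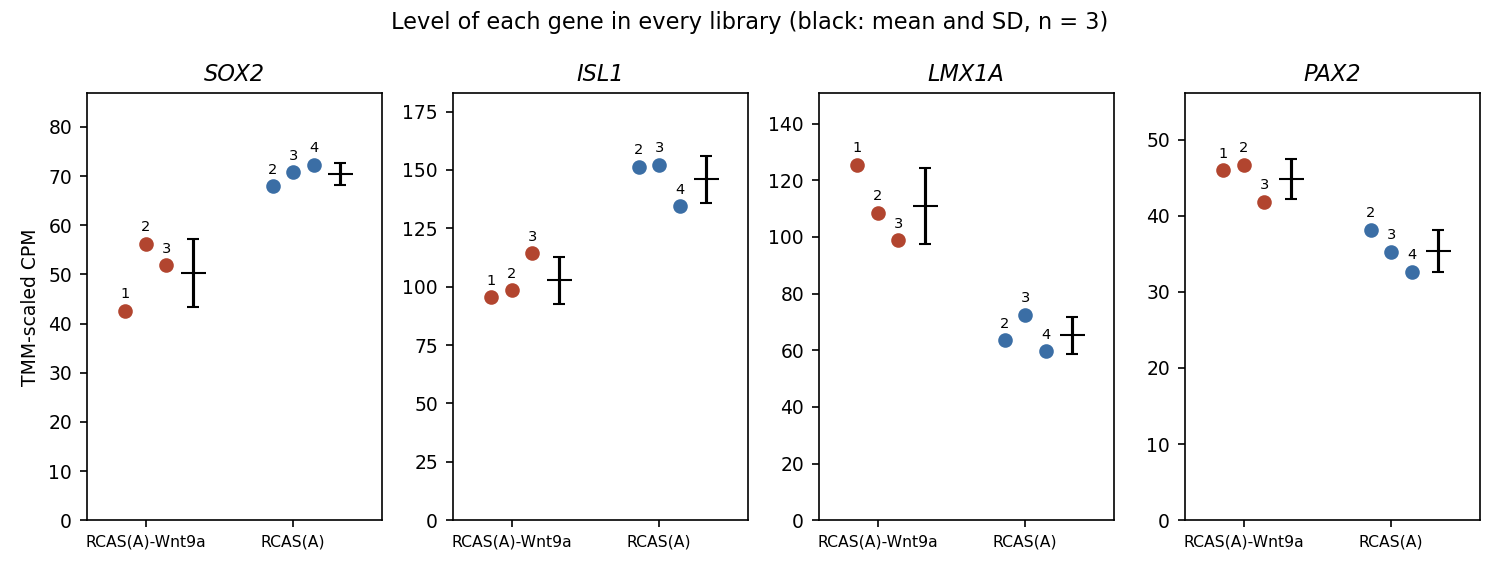
Level of SOX2, ISL1, LMX1A and PAX2 in each library, in TMM-scaled CPM on a linear axis from 0; points are libraries with their replicate number, and black marks give the mean and SD of 3 libraries. SOX2 and ISL1 sit lower in RCAS(A)-Wnt9a than in RCAS(A), LMX1A and PAX2 sit higher, and the groups come closest for PAX2.

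These differences were read from a fit across all tested genes (edgeR's quasi-likelihood test with Benjamini-Hochberg adjustment). In that fit 276 of 12133 genes, or 2.27%, had an adjusted p under 0.05, of which 174 were higher (1.43%) and 102 were lower (0.841%). The 4 genes were among them, 2 in each direction, but they were taken from lists of changed genes, so nothing is read from that count. In this fit of the contrast that chose them, the edgeR adjusted p was 0.00147 for LMX1A, 0.00300 for ISL1, 0.0122 for SOX2 and 0.0439 for PAX2. Libraries of the 2 groups did not overlap for 9.82% of tested genes in the higher direction and for 9.16% in the lower direction.

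Of the tested genes 101 had a higher log2 fold change than LMX1A and 551 a higher one than PAX2. In the other direction 234 genes had a lower log2 fold change than ISL1 and 263 a lower one than SOX2. In either direction, 4.15% of tested genes had a larger absolute log2 fold change than ISL1, 4.59% a larger one than SOX2 and 9.08% a larger one than PAX2. The median absolute log2 fold change was 0.53 among the 276 changed genes and 0.09 among all tested genes, so LMX1A lay above the first of these values and the other 3 genes lay between the 2.

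**Figure D2:**
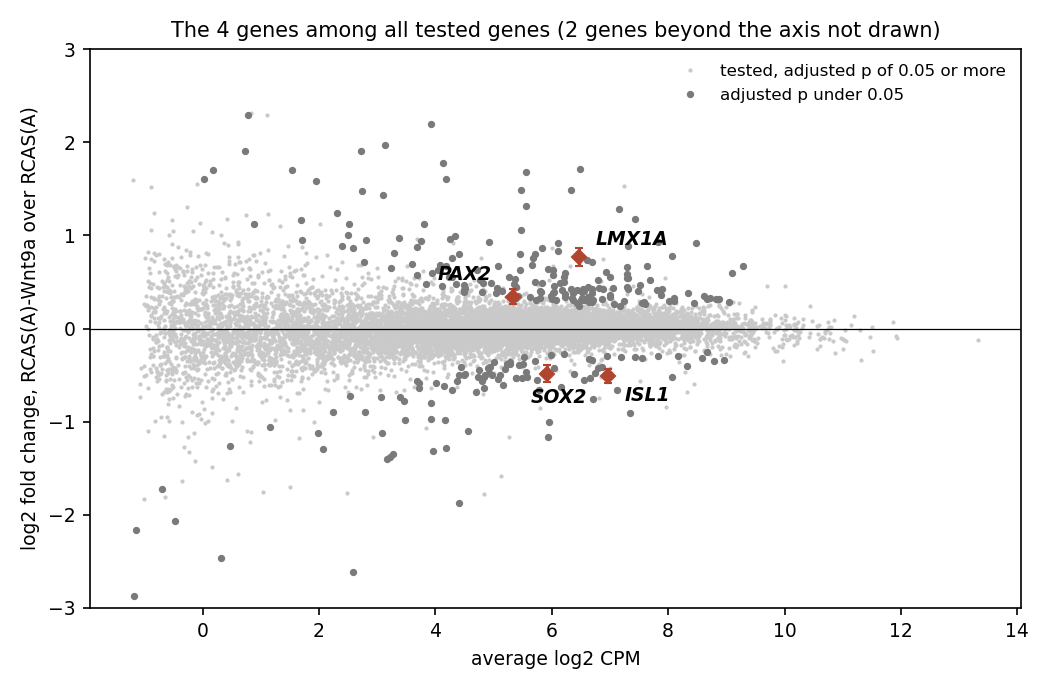
Log2 fold change of RCAS(A)-Wnt9a over RCAS(A) against average log2 CPM for all tested genes, with SOX2, ISL1, LMX1A and PAX2 as diamonds with their SE. Dark points have an adjusted p under 0.05; the 4 genes lie at middle to high expression, LMX1A and PAX2 above 0 and SOX2 and ISL1 below it, and 2 genes beyond the axis are not drawn.

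The adjusted p of SOX2 and of PAX2 rose above 0.05 in some fits with 1 library left out. For SOX2 the log2 fold change was -0.48 (SE 0.105) without RCAS(A) replicate 3 and -0.46 (SE 0.106) without RCAS(A) replicate 4. With all libraries it was -0.49 (SE 0.090), so the estimate moved little and the SE grew. The edgeR adjusted p of SOX2 was 0.0528 without RCAS(A) replicate 3 and 0.0630 without RCAS(A) replicate 4. For PAX2 it was above 0.05 in 5 of 6 fits with 1 library left out, from 0.0651 without RCAS(A) replicate 2 to 0.221 without RCAS(A) replicate 4, and 0.0286 without RCAS(A)-Wnt9a replicate 3. It was 0.126 without RCAS(A) replicate 3, 0.107 without RCAS(A)-Wnt9a replicate 1 and 0.142 without RCAS(A)-Wnt9a replicate 2. LMX1A and ISL1 had an adjusted p of at most 0.0162 and 0.0262 in these 6 fits. Over all genes, 148 were changed when RCAS(A) replicate 2 was left out and 146 when RCAS(A) replicate 4 was.

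Because levels of different genes can be compared only per length, the order of the 4 genes was taken from the authors' pooled FPKM, which gives 1 value per group with confidence bounds whose level is not given in the sources used here. Overlap of these bounds is a description and no test. In RCAS(A)-Wnt9a the order was SOX2 (63.8 FPKM), LMX1A (40.7), ISL1 (32.2) and PAX2 (19.8). In RCAS(A) it was SOX2 (90.3 FPKM), ISL1 (45.3), LMX1A (23.8) and PAX2 (15.6). LMX1A and ISL1 thus stood in opposite order in the 2 groups. In RCAS(A)-Wnt9a their bounds overlapped, at 33.7 to 47.6 FPKM for LMX1A and 25.5 to 39.0 FPKM for ISL1, so these neighbours were not separated by their bounds. In RCAS(A) the bounds were apart, at 19.5 to 28.0 FPKM for LMX1A and 37.1 to 53.5 FPKM for ISL1. SOX2 stood above both in each group, with bounds of 51.6 to 76.1 FPKM in RCAS(A)-Wnt9a and 74.0 to 107 FPKM in RCAS(A). The rank of SOX2 depends on the length used for it. CPM over FPKM implied 783 bases for SOX2, against 2267 to 3208 bases for the others.

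PAX2 was last in both groups, with bounds of 15.9 to 23.7 FPKM in RCAS(A)-Wnt9a and 12.4 to 18.8 FPKM in RCAS(A), and its bounds overlapped between the groups. They overlapped with those of no other member in RCAS(A)-Wnt9a, and in RCAS(A) they stopped short of those of LMX1A by less than 1 FPKM. The bounds of SOX2 and of ISL1 also overlapped between the groups, by a narrow margin, and those of LMX1A did not. Among all genes listed in the FPKM table, SOX2 stood above 89.3% in RCAS(A)-Wnt9a and above 93.4% in RCAS(A). LMX1A stood above 81.9% in RCAS(A)-Wnt9a and above 70.3% in RCAS(A).

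**Figure D3:**
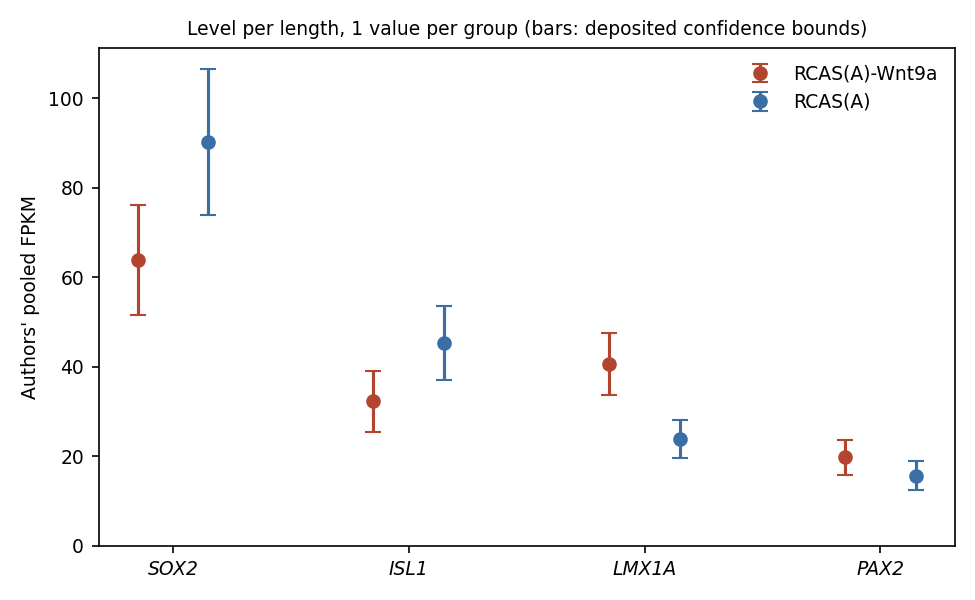
The authors' pooled FPKM of SOX2, ISL1, LMX1A and PAX2 in RCAS(A)-Wnt9a and RCAS(A), on a linear axis from 0, with the deposited confidence bounds as bars. SOX2 is highest and PAX2 lowest in both groups, and LMX1A stands above ISL1 in RCAS(A)-Wnt9a and below it in RCAS(A).

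A ratio of 2 genes inside a library does not depend on library size or scaling. Counts of LMX1A were 2.95, 1.93 and 1.90 times those of SOX2 in RCAS(A)-Wnt9a pools 1, 2 and 3, against 0.935, 1.02 and 0.825 times in the control pools 2, 3 and 4 of RCAS(A). LMX1A counts thus exceeded those of SOX2 in every RCAS(A)-Wnt9a pool and were near them in every RCAS(A) pool. Count ratios are not corrected for length and are compared between groups only. The mean log2 ratio was 1.15 ± 0.36 in RCAS(A)-Wnt9a and -0.11 ± 0.16 in RCAS(A) (SD, n = 3 each), a difference of 1.26.

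For LMX1A against ISL1, the 2 LIM-homeodomain genes, the count ratio was 1.31, 1.10 and 0.864 in RCAS(A)-Wnt9a pools 1, 2 and 3, against 0.419, 0.476 and 0.444 in the control pools 2, 3 and 4 of RCAS(A). The mean log2 ratio was 0.11 ± 0.30 in RCAS(A)-Wnt9a and -1.17 ± 0.09 in RCAS(A), a difference of 1.27. For PAX2 against SOX2 the mean log2 ratio was -0.16 ± 0.23 in RCAS(A)-Wnt9a and -0.99 ± 0.16 in RCAS(A), a difference of 0.84. The groups did not overlap for any of these ratios. Each sets a gene that was higher in every RCAS(A)-Wnt9a pool against one that was lower in every such pool. Such ratios separate the groups by arithmetic, so nothing is read from the separation or its size.

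SOX2 and ISL1 were both lower in RCAS(A)-Wnt9a, by about the same factor. Their count ratio was 0.446, 0.571 and 0.454 in RCAS(A)-Wnt9a pools 1, 2 and 3, against 0.449, 0.465 and 0.538 in the control pools 2, 3 and 4 of RCAS(A). The groups overlapped almost entirely. The mean log2 ratio was -1.04 ± 0.20 in RCAS(A)-Wnt9a and -1.05 ± 0.14 in RCAS(A) (SD, n = 3 each), a difference of 0.015 that is far inside the spread within either group. This restates by arithmetic the like log2 fold changes of the 2 genes, which were known when they were chosen. Nothing is therefore read from the overlap either.

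**Figure D4:**
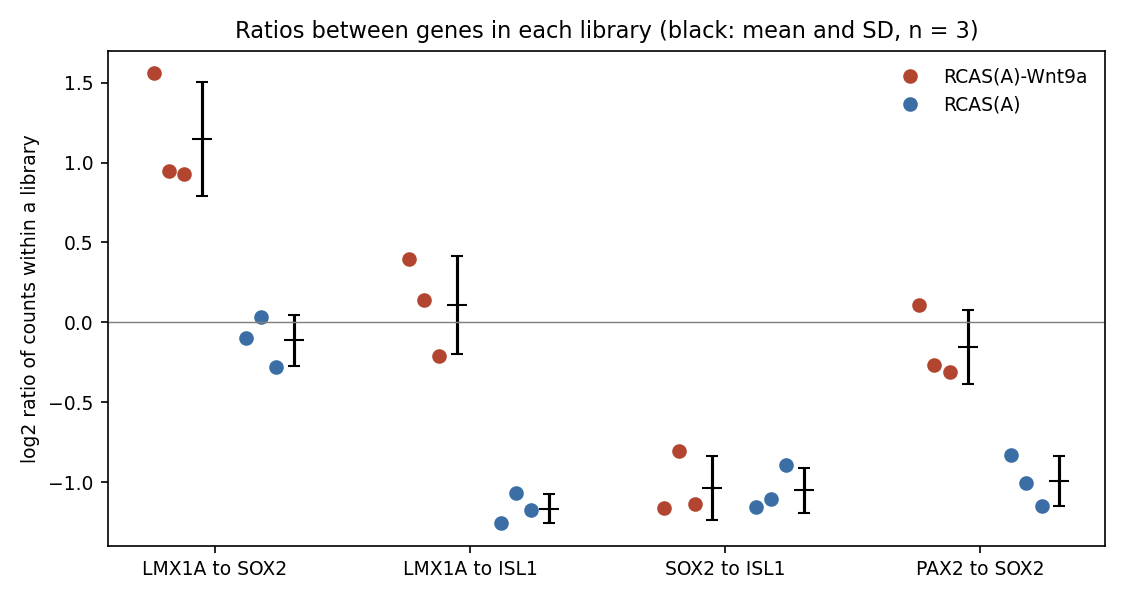
Log2 ratio of raw counts of 2 genes within each library, for 4 pairs of genes; points are libraries and black marks give the mean and SD of 3 libraries. LMX1A to SOX2, LMX1A to ISL1 and PAX2 to SOX2 are higher in every RCAS(A)-Wnt9a library than in any RCAS(A) library, whereas SOX2 to ISL1 overlaps. For the pairs of a higher and a lower gene this separation follows from the choice of genes, and the overlap of SOX2 to ISL1 from their like fold changes.

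Within the RCAS(A)-Wnt9a group the pools were not alike. Replicate 1, with the most WNT9A counts, was highest for LMX1A and lowest for both SOX2 and ISL1. Replicate 2 was highest for SOX2 and for PAX2, and replicate 3, with the least WNT9A, was lowest for LMX1A and PAX2 and highest for ISL1. In this group LMX1A had the order of WNT9A and ISL1 the reverse order, and SOX2 and PAX2 had neither. Among the RCAS(A) pools WNT9A was highest in replicate 4 and lowest in replicate 3, and both LMX1A and ISL1 ran in the reverse order, so LMX1A did not follow WNT9A there. Each group has only 3 pools, and these are orders of values. Without replicate 1 the log2 fold change was 0.67 for LMX1A, -0.46 for ISL1, -0.38 for SOX2 and 0.33 for PAX2.

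ISL1 is the one gene of the 4 on a sex chromosome, and pools of embryos can differ in sex. Over the 602 tested genes of chromosome Z the median log2 fold change was 0.022, against -0.0037 over all tested genes, and 2.16% of them were changed, 5 higher and 8 lower. The median deviation of Z genes from their mean over the 6 libraries was 0.0029, -0.046 and 0.074 on the log2 scale in RCAS(A)-Wnt9a pools 1, 2 and 3, against 0.0098, -0.020 and -0.0029 in the control pools 2, 3 and 4 of RCAS(A). The 6 tested genes of chromosome W summed to 167, 175 and 122 CPM in RCAS(A)-Wnt9a pools 1, 2 and 3, against 153, 168 and 157 CPM in the control pools 2, 3 and 4 of RCAS(A). RCAS(A)-Wnt9a replicate 3 was thus highest on Z and lowest on W. Without that pool, the one with the most ISL1 of its group, the log2 fold change of ISL1 was -0.59. The median log2 fold change of chromosome Z genes was then -0.012, so its sign depended on that pool. The part of sex in the level of ISL1 was not tested.

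The other 3 genes sit on autosomes whose median lay close to 0. Median log2 fold changes were 0.0073 over 372 genes of chromosome 9, 0.016 over 456 genes of chromosome 8 and 0.0059 over 419 genes of chromosome 6. On chromosome 8, 12 genes were changed and higher and 2 lower, or 3.07%, against 2.27% of all tested genes. The changed share was 1.34% on chromosome 9 (3 higher, 2 lower) and 2.15% on chromosome 6 (5 higher, 4 lower). No other gene of the deposited FPKM table overlapped the listed position of SOX2, ISL1, LMX1A or PAX2. SOX2 had the shortest implied length (CPM over FPKM) of the 4, at 783 bases, against 2267 to 3208 bases for the others. This is not an annotated transcript length, and for SOX2 it is below the listed span of 948 bases. Over all genes the fitted trend of log2 fold change with length stood at -0.05 at the length of SOX2 and between -0.0044 and 0.014 at the lengths of the others. With that trend removed, in a fit added after the data were seen, the log2 fold change of SOX2 was -0.44, with an edgeR adjusted p of 0.0221.

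Genes with a profile like each member's were sought among 454 genes with a symbol, by the root mean square difference of standardised log2 CPM over the 6 libraries, where 0 is an identical shape. Only genes that the authors' tables call changed carry a symbol, so candidates that separate the groups were favoured. With 6 libraries, a shared order of pools follows largely from choosing the closest profile, so nothing is read from it. Closest to SOX2 were GRIN3A, an NMDA receptor subunit (difference 0.049), CNTN3, a contactin of neuronal surfaces (0.12), and TMEM9 (0.15). GRIN3A was at 22.8, 29.2 and 26.6 CPM in RCAS(A)-Wnt9a pools 1, 2 and 3, against 34.3, 34.8 and 35.7 CPM in the control pools 2, 3 and 4 of RCAS(A), with the same order of pools within each group as SOX2. It was also the closest of all tested genes, with or without a symbol.

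ISL1 was most like ITGA6, a laminin-binding integrin chain (0.16), CEP41, a centrosomal protein gene (0.21), and TSPAN3, a tetraspanin (0.21). ITGA6 was at 251, 272 and 309 CPM in RCAS(A)-Wnt9a pools 1, 2 and 3, against 366, 379 and 353 CPM in the control pools 2, 3 and 4 of RCAS(A). Within each group its order of pools was that of ISL1.

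LMX1A was most like DLX5, a homeobox gene of the early and dorsal ear (0.085), LRRFIP2 (0.15) and MSX1, another homeobox gene (0.15). DLX5 was at 21.9, 18.7 and 16.2 CPM in RCAS(A)-Wnt9a pools 1, 2 and 3, against 8.94, 9.93 and 7.25 CPM in the control pools 2, 3 and 4 of RCAS(A). Within each group its order of pools was that of LMX1A, with a larger log2 fold change of 1.12 (SE 0.15). MSX1 had a log2 fold change of 2.19 (SE 0.27). PAX2 was most like CYP1B1, a cytochrome P450 gene (0.15), LAMA3, a laminin chain (0.17), and DOCK3, an exchange factor (0.18), with log2 fold changes of 0.40, 1.44 and 0.51.

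Other otic and prosensory regulators were read through a list of 94 genes, of which 19 had a symbol and were tested. Of these 19, 7 rose, 2 fell and 10 did not pass the test (edgeR, adjusted p under 0.05 over all tested genes). Among all 485 tested genes with a symbol 169 rose and 96 fell, together 54.6%, so the count for the regulators lies near that of named genes in general. Since the authors' tables named these 19 as changed in the same libraries, the counts are not independent evidence of a direction. Their median log2 fold change was 0.33, against 0.28 over the 485 tested genes with a symbol and -0.0037 over all tested genes. The 7 that rose had log2 fold changes between 0.32 and 2.19, and the 2 that fell were SALL3, a zinc finger gene, at -0.30 and HES5, a Notch effector, at -0.78, the last named after its value was seen.

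The 6 with the highest average CPM of the 19, a measure not corrected for gene length, were HEY1, GATA2, BMP7, SALL1, TBX18 and SALL3. GATA2, a zinc finger factor gene, averaged 470 ± 48.6 CPM in RCAS(A)-Wnt9a and 374 ± 8.60 CPM in RCAS(A), and BMP7, a ligand of the BMP pathway, 453 ± 37.7 CPM in RCAS(A)-Wnt9a and 364 ± 19.6 CPM in RCAS(A) (SD, n = 3 each). GATA2 rose by 0.33 and BMP7 by 0.32 on the log2 scale, beside 0.34 for PAX2. SALL3 averaged 203 ± 15.2 CPM in RCAS(A)-Wnt9a and 249 ± 8.90 CPM in RCAS(A). HEY1, a Notch effector, had a log2 fold change of -0.30, SALL1 one of -0.60 and TBX18 one of 0.23, and none of these 3 passed the test (edgeR adjusted p = 0.0951, 0.356 and 0.0796).

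Family relatives of the 4 genes, a list of 39 LIM homeobox, PAX and SOX genes and their LIM partners, had only 2 members with a symbol. SOX13, of the SOXD group, rose to 63.8 ± 7.86 CPM in RCAS(A)-Wnt9a, against 48.5 ± 1.61 CPM in RCAS(A) (log2 fold change 0.40, edgeR adjusted p = 0.0243). LHX2, a LIM homeobox gene, was scarce, at 0.345 ± 0.023 CPM in RCAS(A)-Wnt9a against 1.93 ± 0.074 CPM in RCAS(A). Its log2 fold change was -2.46 (SE 0.30). LHX2 was near the floor in RCAS(A)-Wnt9a and passed the filter on low counts through RCAS(A), so no test is read for it. Of the LIM homeobox genes with a symbol here, ISL1 and LHX2 were thus lower and LMX1A was higher in RCAS(A)-Wnt9a. They carry a symbol because the authors' tables call them changed, so they do not stand for the family.

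**Figure D5:**
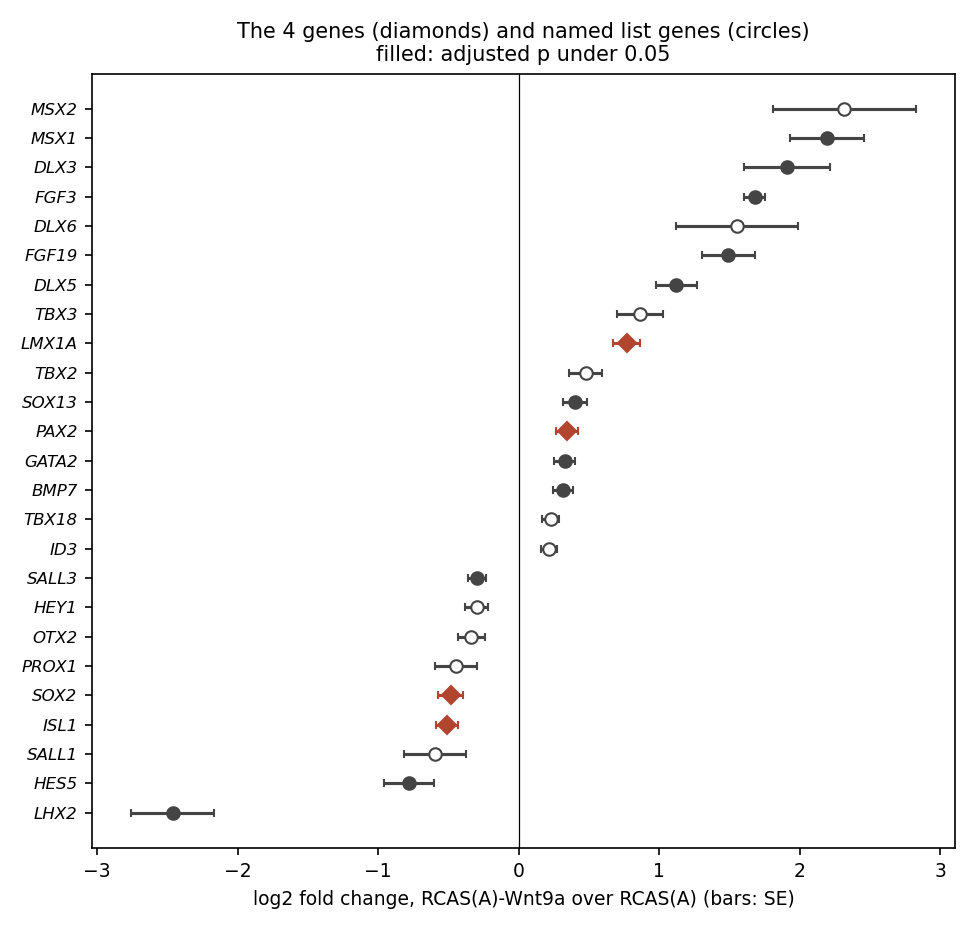
Log2 fold change of RCAS(A)-Wnt9a over RCAS(A) with its SE for SOX2, ISL1, LMX1A and PAX2 (diamonds) and for the named genes of the otic and family lists (circles), ordered by value; filled symbols have an adjusted p under 0.05. SOX2 and ISL1 stand beside each other below 0, between SALL1 and PROX1, and LMX1A lies between TBX3 and TBX2 above 0. LHX2 is drawn filled, but no test is read for it, since it passed the filter on low counts through RCAS(A). MSX2 and DLX6, drawn open, averaged 0.574 and 0.419 CPM in RCAS(A), near the floor.

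In bulk RNA, fewer cells of a type and less RNA per cell cannot be told apart. Markers of cell types that the dissection can hold are therefore given beside the 4 genes. Only genes that the authors' tables call changed carry a symbol, so most markers of these lists were not read. Among tested genes with a symbol 54.6% passed the test, against 2.27% of all tested genes. Neither how many named markers rose or fell nor their summed level is therefore read as a change in a cell type. Of 14 markers of otic epithelium and supporting cells 2 had a symbol, TECTB, a tectorial membrane gene, and HES5, and both fell. TECTB averaged 2.78 ± 1.83 CPM in RCAS(A)-Wnt9a and 48.8 ± 8.63 CPM in RCAS(A) (SD, n = 3 each). HES5 averaged 8.02 ± 1.99 CPM in RCAS(A)-Wnt9a and 13.8 ± 2.04 CPM in RCAS(A). The summed level of TECTB and HES5 was 9.50 to 12.1 CPM in RCAS(A)-Wnt9a and 54.2 to 68.9 CPM in RCAS(A). Most of that difference lay in TECTB alone. Of 15 hair cell markers 4 had a symbol, of which the calcium-binding protein gene CIB2, the calcium pump gene ATP2B2 and the neurotrophin gene BDNF fell and PCDH15, a tip link gene, did not pass the test. Their sum was 65.7 to 78.0 CPM in RCAS(A)-Wnt9a and 93.8 to 96.0 CPM in RCAS(A). Log2 fold changes were -0.60 for CIB2, -0.45 for ATP2B2, -0.74 for BDNF and 0.54 for PCDH15.

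ISL1 is also a neuronal gene, and of 15 ganglion neuron markers the single one with a symbol, the neurotrophin receptor gene NTRK2, fell to 69.0 ± 4.32 CPM in RCAS(A)-Wnt9a, against 96.9 ± 11.0 CPM in RCAS(A) (SD, n = 3 each). Nonsensory epithelium markers were named for 3 of 8, and ZPLD1 and GATA2 rose while OTX2 had a log2 fold change of -0.34 and did not pass the test. The sum of these 3 was 494 to 593 CPM in RCAS(A)-Wnt9a and 465 to 486 CPM in RCAS(A). GATA2 made up most of it, at 470 ± 48.6 CPM in RCAS(A)-Wnt9a and 374 ± 8.60 CPM in RCAS(A).

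Periotic mesenchyme markers were named for 8 of 18, with PRRX1, HAPLN1 and COL9A1 rising, LUM falling and 4 not passing the test. Those 4 were COL1A2, TBX18 and ACAN, with log2 fold changes of 0.29, 0.23 and 0.92, and COL5A2, with -0.26. COL5A2 averaged 576 ± 33.8 CPM in RCAS(A)-Wnt9a and 689 ± 15.0 CPM in RCAS(A). These 8 summed to 2121 to 2281 CPM in RCAS(A)-Wnt9a and 1946 to 2061 CPM in RCAS(A). For glia and neural crest 1 of 9 was named, CDH19, at 12.3 to 17.1 CPM in RCAS(A)-Wnt9a and 9.62 to 10.5 CPM in RCAS(A). For blood and endothelium 2 of 13 were named, TFRC and FLT1, which summed to 176 to 187 CPM in RCAS(A)-Wnt9a and 149 to 155 CPM in RCAS(A). GATA2, OTX2, HES5 and TBX18 also stand in the list of regulators. None of the named markers was at 0 in any library. The part of these markers in the levels of SOX2, ISL1, LMX1A and PAX2 was not tested.

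The authors' deposited table from edgeR, with 500 genes, gives log2 fold changes of -0.48 for SOX2, -0.51 for ISL1, 0.77 for LMX1A and 0.34 for PAX2. The authors' deposited table from DESeq2, with 437 genes, gives -0.39 for SOX2, -0.43 for ISL1, 0.63 for LMX1A and 0.29 for PAX2. DESeq2 run here on the deposited counts gave -0.48 for SOX2, -0.50 for ISL1, 0.77 for LMX1A and 0.35 for PAX2. Why the deposited DESeq2 values are smaller was not tested. These values rest on the same 6 libraries.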

How the data were processed

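RNA sequencing was analysed in 6 libraries. The authors' count table holds raw counts for each Ensembl gene ID. The galGal4 build and the tools DESeq2, edgeR, DESeq and TopHat2 are named in the submitters' processing notes. How reads were counted, with which strand setting and annotation, is not given in the sources used here. Reads of antisense partners therefore cannot be told apart. The authors deposited log2 fold changes with adjusted p-values (DESeq2 and edgeR tables), and an FPKM table with 1 pooled value per group and its bounds, per the file headers. Starts in that table count from 0 and were written here from 1.

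Genes passing filterByExpr (12133 of 15955) were TMM-scaled and tested with edgeR 4.0.16 (robust glmQLFit and two-sided glmQLFTest) in R 4.3.3. The code was also run on counts simulated from edgeR's own model with dispersions of these data, so that run is no check of the model. CPM is TMM-scaled, and an SE is the log2 fold change over the square root of F. An exact permutation test of 3 against 3 libraries cannot go below 0.1. DESeq2 1.42.0, limma 3.58.1 (voom), other scalings, no filter, a replicate block and leaving out each library were alternatives. Tables were made with Python 3.11.15 and pandas 2.3.3.

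Symbols came from the authors' tables of changed genes (493 of 522), matched by accession, symbol or synonym to RefSeq names of GRCg7b. The members and lists were chosen with earlier results of these data known. Named genes are the 4 members, WNT9A, the 3 genes most alike each member (average log2 CPM of at least 1, pseudocount 0.5 CPM) and up to 6 of each list by average CPM. PRRX1 and ACAN of the periotic mesenchyme list and HES5 of the regulators are named beyond this limit, as are genes that place others in figures. Implied length is CPM over FPKM. Sequences were not used here.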

Additional observations from a re-analysis of the deposited data

How the results depend on the processing

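The sign of the log2 fold change of SOX2, ISL1, LMX1A and PAX2 was the same in all 13 alternatives. This is no sign of stability, since genes whose groups do not overlap can hardly change sign. The 4 genes were chosen as changed in these libraries, so staying under an adjusted p of 0.05 is no such sign either. ISL1 and LMX1A also stayed under an adjusted p of 0.05 in all 13. SOX2 did so in 11, missing it in 2 fits with 1 control library left out; omitting single libraries gave log2 fold changes of -0.58 to -0.38. PAX2 missed it in 8 of 13: its log2 fold change was 0.34 with limma-voom (adjusted p 0.0541), 0.34 with library size alone (0.0698) and 0.27 with the replicate block (0.145), and omitting single libraries gave 0.29 to 0.40. The number of changed genes was 276, against 439 with DESeq2, 506 with the replicate block and 146 to 294 with 1 library left out. The groups share only replicate numbers 2 and 3, whose libraries' deviations from their group means correlated at -0.014 and 0.22 across genes, which does not settle whether the numbers pair the pools; the block fit used those 4 libraries alone. It changed no call among the 4 genes but that of PAX2. Ratios between the genes and medians per chromosome moved by less than 1 pooled within-group SD in 52 of 56 alternatives, and the other 4 were chromosome medians. For the ratios this was fixed in advance. Leaving out 1 of 3 libraries cannot move a difference of mean ratios by that SD, and adding 1 count hardly moves it. Nothing is therefore read from it about how steady the ratios are. For chromosome Z the pooled within-group SD was 0.044, above the median log2 fold change of 0.022. That median therefore counted as unmoved at -0.012 without RCAS(A)-Wnt9a replicate 3. The causes of the differences between the alternatives were not tested. The lowest single count of the 4 genes was 662, with a counting error of 3.89%. How much counting error and the spread between 3 pools each limit precision was not tested.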
